A study of Mus musculus with 6 samples.

Results

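The genes described here, 10 in number, carry fatty acids from circulating triglyceride into the cell and turn them into acyl-CoA: Lpl, Gpihbp1 and Angptl4 of the lipase system, Cd36 and Slc27a1 at the plasma membrane, the cytosolic binding protein Fabp4, and the long-chain acyl-CoA synthetases Acsl1, Acsl3, Acsl4 and Acsl5. They were chosen by gene symbol and not by a cut on their values, but with earlier results of these data known. Reporters (array spots that each carry 1 probe) were found for 8 of the 10 genes, 14 reporters in all, among 25729 genes and 39407 reporters tested. Lpl and Acsl1 are not analysed here.

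The study profiled epididymal white fat of obese and lean mice, aged 9 weeks and of the C57BLKS/J background per the labels. The obese group was ob/ob (3 samples), with the ob mutation of the leptin gene on both chromosomes and so without working leptin. The lean controls were ob/+ (3 samples), which carry the same mutation on 1 chromosome and are therefore not free of it. Each of the 6 two-colour Agilent arrays set 1 sample, in Cy5, against the same pool of ob/+ RNA, in Cy3, without a dye swap. The deposited table names the controls and the pool wt and gives 3 as the number pooled, so the pool may hold RNA of the ob/+ samples themselves.

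White fat cells take most of their fatty acid from triglyceride-rich lipoproteins. Lipoprotein lipase, held on the capillary wall by GPIHBP1 and restrained by ANGPTL4, splits the triglyceride. The freed fatty acid crosses the membrane with the help of CD36 and of FATP1, the product of Slc27a1, is bound by FABP4 and is made into acyl-CoA by the ACSL enzymes, which traps it in the cell for esterification or oxidation.

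Intensities are in the authors' units, with an array median of 0.11 to 0.15, and 42.0% of them lay under 0.1, where the deposited step of 0.01 is coarse. The log2 ratio of sample to pool had a median of 0 on every array. It spread more widely on the ob/ob arrays (SD over reporters 0.57 to 0.63) than on the ob/+ arrays (0.21 to 0.23). Ratios correlated between ob/ob arrays at 0.831 to 0.893 and between ob/+ arrays at -0.309 to 0.064, and the direction of the ratio was taken from the dyes in the labels. The tissue label was checked on fat cell markers. Adipoq and Slc2a4, the 2 brightest of 11 measured, had intensities of 10.2 to 30.4 and 19.2 to 37.5 over all 6 arrays. The mean intensities of the others ran down to 0.14 at Adrb3. The check does not show that the samples held only fat, since Crisp1, a gene of the epididymis, read 4.93 to 22.5 in ob/+. Precision is limited by there being only 6 arrays. The labels do not say that each sample came from its own mouse, and p-values therefore speak only of the spread among the samples given. In whole tissue, fewer cells of a type and less RNA per cell cannot be told apart.

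The called genes did not share a direction, but by the brightest reporter only Acsl5 was higher, at an adjusted p of 0.0409 in limma. That call was lost in most fits with 1 array left out and with both Acsl5 reporters averaged (adjusted p = 0.107 in limma). Of the 8 genes, judged by their brightest reporter, Gpihbp1, Slc27a1 and Fabp4 fell in ob/ob and Acsl5 rose at an adjusted p under 0.05 in limma, against 24.6% of all genes called in either direction (12.4% higher and 12.1% lower). Angptl4, Cd36, Acsl3 and Acsl4 did not pass by that reporter. Among genes with a mean intensity of 0.5 or more, which 7 of the 8 reach, 36.8% were called. The median log2 fold change of the 8 genes was 0.01, against 0.00 for all genes. The ob/ob and ob/+ arrays did not overlap in 6 of the 8 genes (2 higher, 4 lower), against 40.1% of all genes (20.2% higher, 19.9% lower). Over reporters, 7 of 14 were called, against 20.9% of all reporters, and they belonged to 5 genes because the dimmer Acsl4 reporter passed. The arrays of the groups lay apart at 10 of the 14 reporters, against 34.8% of all reporters.

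**Figure D1:**
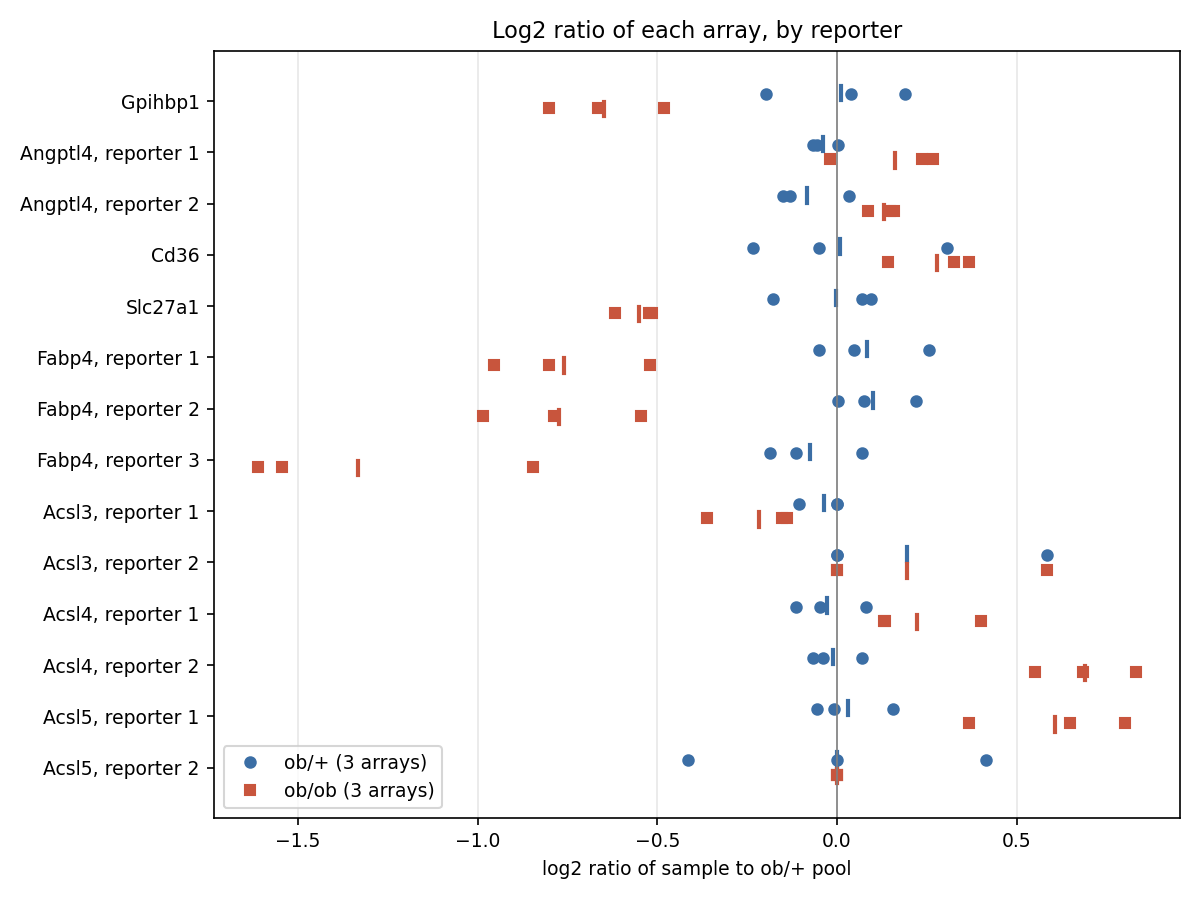
Log2 ratio of the sample to the ob/+ pool (horizontal axis) on each of 3 ob/+ arrays (blue circles) and 3 ob/ob arrays (red squares) for each of the 14 reporters, numbered from the brightest within a gene, with short bars at the group means. The ob/ob squares of Gpihbp1, Slc27a1 and all Fabp4 reporters lie to the left of the ob/+ circles, and those of both Acsl4 reporters and the brighter Acsl5 reporter lie to the right.

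Gpihbp1, the endothelial protein that carries lipoprotein lipase to the capillary lumen and anchors it there, was lower in ob/ob. Its single reporter read 20.4, 15.6 and 17.9 on the ob/+ arrays and 13.4, 11.1 and 11.4 on the ob/ob arrays. All ob/ob values lay under all ob/+ values, while the pool channel stayed between 17.4 and 19.3 on the 6 arrays. The log2 ratio to the pool was 0.01 ± 0.20 (SD, n = 3) in ob/+ and -0.65 ± 0.16 (SD, n = 3) in ob/ob. The log2 fold change was -0.66 ± 0.13 (SE), which puts ob/ob at 63.3% of ob/+, with an adjusted p of 0.0305 in limma. Gpihbp1 no longer passed when ob/+ replicate 1 was left out (adjusted p = 0.0854 in limma), nor when ob/+ replicate 3 (0.103), ob/ob replicate 2 (0.0875) and likewise ob/ob replicate 3 (0.105) were, with the log2 fold change at -0.57 to -0.65. On the sample channel alone the change was -0.32, with an adjusted p of 0.205 in limma.

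Endothelial markers were read beside Gpihbp1, since that gene is made by capillary endothelium. Of 14 markers, 2 were called lower in limma, Eng and Ramp2, and 0 higher, also at an unadjusted p under 0.05, with a list median log2 fold change of -0.12. That is 14.3% of the list called lower, against 12.1% of all genes, and the arrays of the groups overlapped or were incomplete for all markers but Eng. The summed intensity of the 13 markers measured on every array ran from 57.5 to 63.5 in ob/+ and from 41.5 to 55.5 in ob/ob. Eng, a coreceptor for transforming growth factor beta on endothelium, fell by 0.37 on the log2 scale (SE 0.04, adjusted p = 0.00788 in limma), but on the sample channel alone it gave -0.03 (adjusted p = 0.897). Ramp2, a partner of the adrenomedullin receptor, fell by 0.42 (SE 0.08, adjusted p = 0.0371 in limma) with 1 ob/ob array missing from the fit, and its dimmer reporter gave -0.02 (adjusted p = 0.843). Esam and Flt1, the other 2 of the 4 brightest markers, had log2 fold changes of 0.03 and -0.20 and did not pass. Kdr, nearly as bright as Flt1, had -0.44 and did not pass (adjusted p = 0.233 in limma). The list ran from -0.88 at Cldn5 (adjusted p = 0.211 in limma) to 0.11 at Tie1 (0.797). Kdr, Cldn5 and Tie1 were named after their values were seen. The part of endothelial content in the Gpihbp1 result was not tested.

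Angptl4, a secreted inhibitor that unfolds lipoprotein lipase, did not pass at either of its reporters. Its brighter reporter read 5.74, 5.57 and 5.33 in ob/+ and 5.06, 6.18 and 6.57 in ob/ob. In intensity the first ob/ob array was the lowest of all 6 and the other 2 were the highest. Its log2 ratio to the pool was -0.02, inside the ob/+ range of -0.066 to 0.003, so the groups overlapped. The log2 fold change was 0.20 ± 0.09 (SE, adjusted p = 0.196 in limma), and without ob/ob replicate 1 it was 0.29 with an adjusted p of 0.0148. The dimmer reporter gave 0.21 ± 0.06 (SE, adjusted p = 0.0703 in limma), with ob/ob ratios of 0.09 to 0.16 above the ob/+ ratios of -0.15 to 0.03. Without ob/+ replicate 1 the dimmer reporter passed, at 0.27 with an adjusted p of 0.0303 in limma.

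**Figure D2:**
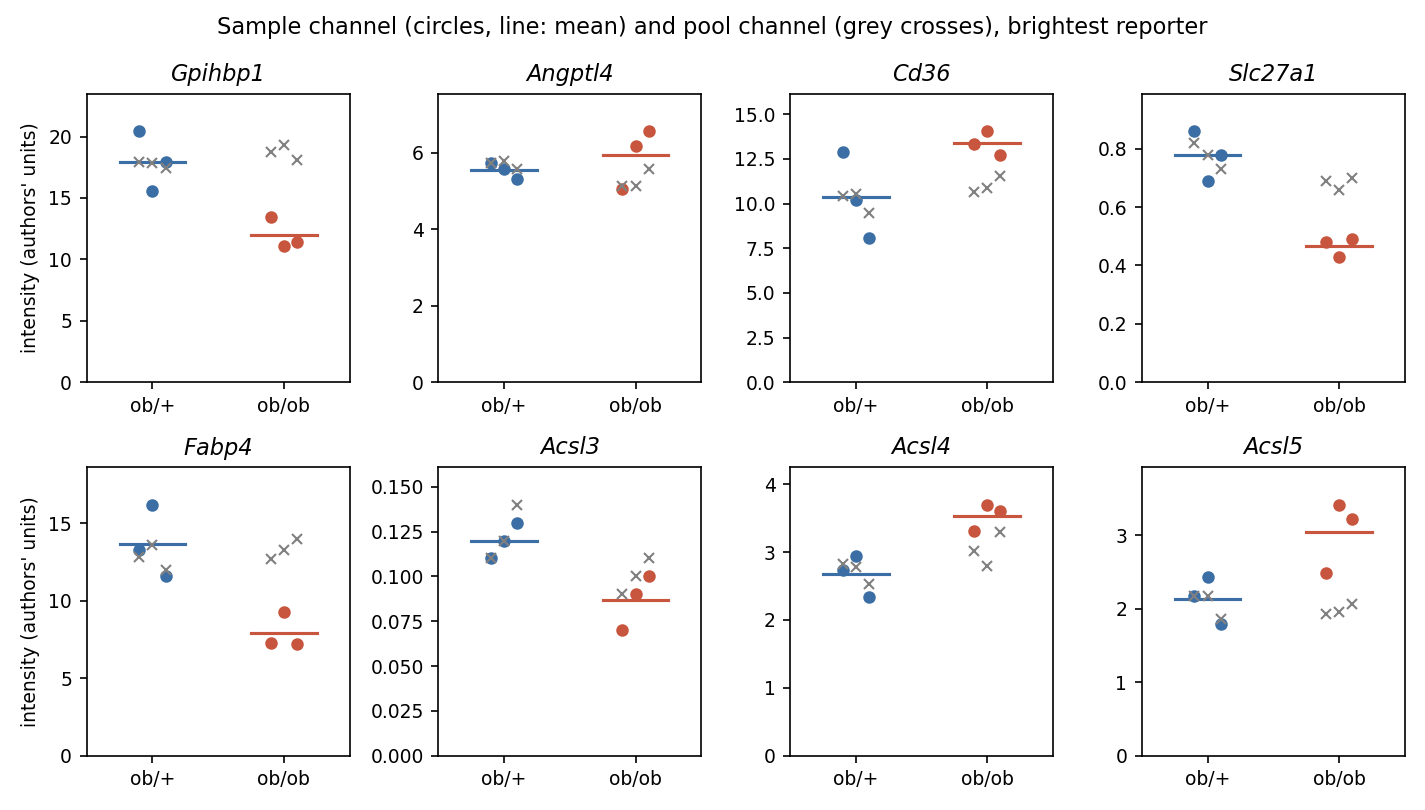
Intensity of the sample channel (circles, blue for ob/+ and red for ob/ob, with a line at the mean of 3 arrays) and of the ob/+ pool on the same arrays (grey crosses) for the brightest reporter of each gene, on a linear axis from 0 in the authors' units. Fabp4 in ob/ob lies at 7.21 to 9.27 against a pool at 11.98 to 13.97 over the 6 arrays, and Acsl5 in ob/ob lies at 2.49 to 3.42 against a pool at 1.86 to 2.18.

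Of the pair of genes at the membrane, 1 was called. Cd36, the scavenger receptor that also serves as a fatty acid translocase, did not pass, and Slc27a1, which codes for fatty acid transport protein FATP1, fell. The 250 bases before the RefSeq start of each gene (build GRCm38.p6, 5′ to 3′ on the strand of the gene) are shown because the pair shares a step and only Slc27a1 was called, and capitals mark matches on either strand to the nuclear receptor half-site AGGTCA, the CCAAT box, the GC box GGGCGG, the TATA box in the form TATAAA, or the E-box in the form CACGTG.
Cd36, chr5:17835897-17836146, minus strand: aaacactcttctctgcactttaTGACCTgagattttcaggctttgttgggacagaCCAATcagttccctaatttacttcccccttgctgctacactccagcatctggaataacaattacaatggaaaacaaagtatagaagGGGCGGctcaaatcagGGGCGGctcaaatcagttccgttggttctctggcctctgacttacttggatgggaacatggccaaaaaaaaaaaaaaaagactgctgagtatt
Slc27a1, first of 3 starts, chr8:71568621-71568870, plus strand: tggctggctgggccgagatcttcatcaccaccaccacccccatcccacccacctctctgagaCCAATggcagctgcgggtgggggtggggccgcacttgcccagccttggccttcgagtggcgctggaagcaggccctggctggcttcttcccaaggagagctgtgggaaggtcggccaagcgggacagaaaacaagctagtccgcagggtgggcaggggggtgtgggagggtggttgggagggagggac

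The Cd36 window held 1 AGGTCA, the half-site that nuclear receptors of the PPAR kind read in pairs, beginning 228 bases before the start. Of the 32851 windows of the same length, 14.02% held AGGTCA, 33.85% the CCAAT box, 32.74% GGGCGG, 12.37% the TATA form and 6.021% the E-box form. Cd36 also held 1 CCAAT box and 2 copies of the GC box, with 43.2% of its bases G or C, and the first Slc27a1 window held 1 CCAAT box and no GC box, with 66.4% of its bases G or C. The second Slc27a1 start had 1 GC box and the third had 3, with 1 CCAAT box and 1 E-box form. These matches describe the letters and are not sites of binding.

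Cd36 read 12.9, 10.2 and 8.05 in ob/+ and 13.3, 14.1 and 12.7 in ob/ob. The ob/+ arrays differed more among themselves than the ob/ob arrays did, and the highest ob/+ array overlapped the ob/ob range. The log2 ratio was 0.01 ± 0.28 (SD, n = 3) in ob/+ and 0.28 ± 0.12 (SD, n = 3) in ob/ob. The log2 fold change was 0.27 ± 0.16 (SE, adjusted p = 0.313 in limma), so the difference was within the spread between replicates. It was 0.42 without ob/+ replicate 1, 0.15 without ob/+ replicate 3 and -0.03 after scaling the arrays to equal spread, and it passed under no alternative.

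Slc27a1 read 0.86, 0.69 and 0.78 in ob/+ and 0.48, 0.43 and 0.49 in ob/ob. No value was shared between the groups, and the 3 ob/ob arrays lay close together. The log2 ratio was 0.00 ± 0.15 (SD, n = 3) in ob/+ and -0.55 ± 0.06 (SD, n = 3) in ob/ob. The log2 fold change was -0.55 ± 0.09 (SE), or 68.4% of the ob/+ level, with an adjusted p of 0.0160 in limma. Slc27a1 no longer passed when 1 array was left out, whether it was the first or the third ob/+ replicate, or the second or the third ob/ob replicate, with adjusted p-values of 0.0551 to 0.0619 in limma and log2 fold changes of -0.50 to -0.57.

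Fabp4, the abundant fatty acid binding protein of fat cells, which macrophages also make, had the largest fall of the 8 genes. Its brightest reporter read 13.2, 16.2 and 11.6 in ob/+ and 7.26, 9.27 and 7.21 in ob/ob. Every ob/ob value lay under every ob/+ value. The log2 ratio was 0.09 ± 0.16 (SD, n = 3) in ob/+ and -0.76 ± 0.22 (SD, n = 3) in ob/ob, a log2 fold change of -0.84 ± 0.14 (SE, adjusted p = 0.0191 in limma), or 55.7% of ob/+.

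Fabp4 had 3 reporters, and all of them fell without overlap of the groups. The second read 8.76, 9.52 and 7.08 in ob/+ and 4.24, 5.54 and 4.79 in ob/ob, at -0.87 ± 0.13 (SE, adjusted p = 0.0139 in limma). The third and dimmest read 1.25, 1.09 and 1.02 in ob/+ and 0.64, 0.37 and 0.38 in ob/ob, at -1.26 ± 0.23 (SE, adjusted p = 0.0240 in limma). The reporters agreed in direction and differed in size, from 41.8% to 55.7% of the ob/+ level. For the brightest reporter the call was kept without ob/ob replicate 2 (adjusted p = 0.0247 in limma) and lost without any one of the other 5 arrays (0.0524 to 0.0683), with the log2 fold change at -0.74 to -0.91 in those fits. On the sample channel alone it was -0.52 (adjusted p = 0.155 in limma).

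Some other fat cell markers were lower in the same arrays and others were not. Of 11 measured adipocyte markers, which did not include Fabp4, 4 were called lower and 1 higher, and the list median log2 fold change was -0.56. Adipoq, the gene of adiponectin, fell by 1.26 on the log2 scale (SE 0.22, adjusted p = 0.0193 in limma), Retn, the gene of resistin, by 1.70 (SE 0.38, adjusted p = 0.0377) and the insulin-regulated glucose transporter Slc2a4 by 0.86 (SE 0.21, adjusted p = 0.0454). Plin1, the droplet coat protein perilipin, had a log2 fold change of -0.56 and did not pass at its brighter reporter (SE 0.26, adjusted p = 0.212 in limma), while its dimmer reporter gave -0.49 (adjusted p = 0.0148). Pparg, Aqp7 and Lep were chosen after their values were seen. Pparg, the master regulator of fat cell formation, and the glycerol channel Aqp7 had log2 fold changes of 0.07 and -0.01 and did not pass. Lep, the gene of leptin, is the gene mutated in ob/ob, so the genotype bears on it directly. It was the 1 marker called higher and rose by 2.12 ± 0.08 (SE, adjusted p = 0.000839 in limma) from a mean intensity of 0.107 in ob/+. The summed intensity of the 11 markers was 87.8 to 97.1 in ob/+ and 45.5 to 64.8 in ob/ob. The part of this shift in the falls of Fabp4, Slc27a1 and Gpihbp1 was not tested.

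**Figure D3:**
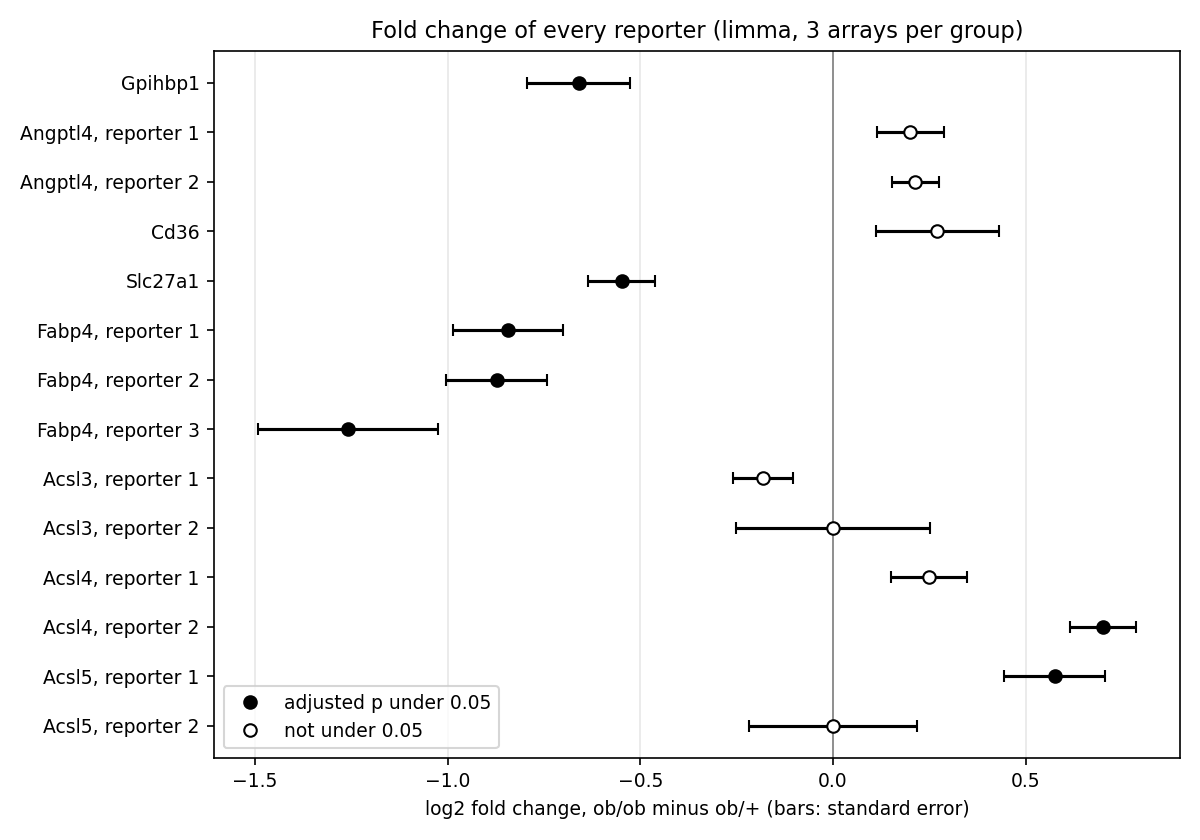
Log2 fold change of ob/ob over ob/+ (horizontal axis, points) with its standard error (bars) for each of the 14 reporters, filled where the adjusted p in limma is under 0.05. The 5 filled points to the left of 0 are Gpihbp1, Slc27a1 and the 3 Fabp4 reporters, and the 2 to the right are the dimmer Acsl4 reporter and the brighter Acsl5 reporter.

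The acyl-CoA synthetases differed from each other. These enzymes share a reaction and differ in the fatty acids they prefer and in their place in the cell. Their upstream windows, from the same RefSeq build and marked in the same way, are set side by side because Acsl5 rose, Acsl4 depended on the reporter and Acsl3 did not pass.
Acsl3, chr1:78657575-78657824, plus strand: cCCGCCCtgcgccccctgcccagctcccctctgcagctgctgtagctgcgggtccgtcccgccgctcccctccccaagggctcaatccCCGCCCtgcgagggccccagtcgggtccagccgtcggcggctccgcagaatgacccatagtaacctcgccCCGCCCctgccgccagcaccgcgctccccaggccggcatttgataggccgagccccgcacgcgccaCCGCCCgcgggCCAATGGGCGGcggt
Acsl4, chrX:142390536-142390785, minus strand: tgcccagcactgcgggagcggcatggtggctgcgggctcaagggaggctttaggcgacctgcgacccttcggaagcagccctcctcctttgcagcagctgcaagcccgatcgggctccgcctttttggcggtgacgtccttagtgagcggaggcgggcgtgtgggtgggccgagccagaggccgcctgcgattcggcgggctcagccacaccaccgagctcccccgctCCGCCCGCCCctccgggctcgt
Acsl5, chr19:55253119-55253368, plus strand: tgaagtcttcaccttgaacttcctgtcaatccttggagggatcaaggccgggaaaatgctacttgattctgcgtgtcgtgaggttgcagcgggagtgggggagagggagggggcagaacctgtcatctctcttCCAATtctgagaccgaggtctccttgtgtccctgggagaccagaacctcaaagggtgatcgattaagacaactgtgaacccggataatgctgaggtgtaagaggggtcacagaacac

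The Acsl3 window held 5 copies of the GC box and 1 CCAAT box that directly adjoins a GC box, and 75.6% of its bases were G or C. The Acsl4 window held 2 GC boxes that overlap each other, with 70.8% of its bases G or C. The Acsl5 window held no GC box and 1 CCAAT box, beginning 117 bases before the start, and 52.8% of its bases were G or C, near the median of 52.4% over all windows. The TATA and E-box forms were in none of these 3 windows.

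Acsl5, a synthetase of mitochondria and endoplasmic reticulum, was higher in ob/ob. Its brighter reporter read 2.17, 2.43 and 1.79 in ob/+ and 2.49, 3.42 and 3.23 in ob/ob. The lowest ob/ob value lay just above the highest ob/+ value. The log2 ratio was 0.03 ± 0.11 (SD, n = 3) in ob/+ and 0.61 ± 0.22 (SD, n = 3) in ob/ob. The log2 fold change was 0.58 ± 0.13 (SE), 1.49-fold, with an adjusted p of 0.0409 in limma. The call was kept without ob/ob replicate 1 (adjusted p = 0.0224 in limma) and lost without any one of the other 5 arrays (0.0700 to 0.132), where the log2 fold change was 0.48 to 0.64. The second reporter had a mean intensity of 0.04, where rounding to steps of 0.01 can move the log2 fold change by 0.74, and it gave 0.00 ± 0.22 (SE). With both reporters averaged the log2 fold change was 0.29 (adjusted p = 0.107 in limma).

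Acsl4, which prefers arachidonic acid, had reporters that disagreed in size. The brighter read 2.74, 2.94 and 2.34 in ob/+ and 3.31, 3.70 and 3.61 in ob/ob, with no overlap. Its log2 fold change was 0.25 ± 0.10 (SE, adjusted p = 0.164 in limma). The dimmer read 0.43, 0.42 and 0.37 in ob/+ and 0.63, 0.73 and 0.74 in ob/ob, and again the groups lay apart. Its log2 fold change was 0.70 ± 0.09 (SE), 1.63-fold, with an adjusted p of 0.00861 in limma, and it passed without any one array, with adjusted p-values of 0.0117 to 0.0428. It did not pass after quantile normalization (0.49, adjusted p = 0.114 in limma) or at equal spread (0.40, adjusted p = 0.180). The mean of both reporters gave 0.48 (adjusted p = 0.02001 in limma), and the sample channel alone gave 0.67 at the brighter reporter (adjusted p = 0.0404).

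Acsl3, a synthetase of endoplasmic reticulum and lipid droplets, was near the floor of the arrays. Its brighter reporter read 0.11, 0.12 and 0.13 in ob/+ and 0.07, 0.09 and 0.10 in ob/ob. The groups did not overlap, but rounding to steps of 0.01 can move the log2 fold change of this reporter by 0.28. It was -0.18 ± 0.08 (SE, adjusted p = 0.186 in limma). The second reporter had a mean intensity of 0.0267 and gave 0.00 ± 0.25 (SE).

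The authors' deposited table also holds, for each reporter and array, a p-value of sample against pool. In the authors' deposited table it was under 0.05 on 3 of 3 ob/ob arrays and 0 of 3 ob/+ arrays for Gpihbp1, Slc27a1, all 3 Fabp4 reporters and the dimmer Acsl4 reporter. For the brighter Acsl5 reporter the authors' deposited table has it under 0.05 on 2 of 3 ob/ob arrays, for the brighter Acsl4 reporter on 1 of 3 ob/ob arrays, and for Cd36 on 2 of 3 ob/ob and 1 of 3 ob/+ arrays. No array reached it for Angptl4 or Acsl3 in the authors' deposited table. These values describe single arrays and say nothing of the spread between samples.

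Differences between genes within an array do not depend on where an array was centred, but they do depend on how its spread was scaled, and 6 were computed. Cd36 minus Fabp4 was -0.31 to 0.26 in ob/+ and 0.89 to 1.13 in ob/ob on the log2 scale. Relative to the pool, Cd36 stood above Fabp4 on every ob/ob array by more than on any ob/+ array, a change of 1.11. Cd36 minus Slc27a1 was -0.33 to 0.24 in ob/+ and 0.66 to 0.99 in ob/ob, a change of 0.82. Gpihbp1 minus Angptl4 was -0.14 to 0.19 in ob/+ and -1.07 to -0.46 in ob/ob, a change of -0.86. Among the synthetases, Acsl5 minus Acsl3 changed by 0.76, Acsl4 minus Acsl3 by 0.43 and Acsl5 minus Acsl4 by 0.33, with Acsl3 near the floor. In all 6 the groups were apart, with an exact two-sided permutation p of 0.1, which is the lowest that 3 against 3 samples allow and is also the value after Benjamini-Hochberg adjustment over the 6. Acsl5 minus Acsl4 turned to -0.19 with reporters averaged and to -0.70 with the dimmest reporters, and Acsl5 minus Acsl3 went to 0.38 (exact permutation p = 0.2) and to 0.00 (exact permutation p = 1). At equal spread and after quantile normalization, which were added after the data were seen and not tested, Cd36 minus Fabp4 was 0.55 and 0.79, Cd36 minus Slc27a1 was 0.26 and 0.48, and Gpihbp1 minus Angptl4 was -0.57 and -0.62. Acsl5 minus Acsl4 was 0.09 and 0.18 in those settings. The last 4 of these pairs were chosen after the files were seen, and 5 intended pairs that needed Lpl or Acsl1 were not run.

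Around lipoprotein lipase, more genes were called higher than lower. Of 19 measured genes of lipase maturation, its cofactors and inhibitors and the lipoprotein receptors, 7 were called higher and 2 lower. That is 47.4% called against 24.6% of all genes, with a median log2 fold change of 0.11 against 0.00. Over all genes with a mean intensity of 0.5 or more, which not all of the list reach, 36.8% were called. By direction, 36.8% of the list were higher and 10.5% lower, against 12.4% and 12.1% of all genes. Apoc2, the activating cofactor of the lipase, read 0.33 to 0.34 in ob/+ and 1.03 to 1.49 in ob/ob (log2 fold change 1.73 ± 0.12 SE, adjusted p = 0.00280 in limma). Angptl8, a secreted protein that takes part in inhibiting the lipase, read 0.73 to 1.07 in ob/+ and 2.01 to 2.86 in ob/ob (1.56 ± 0.13 SE, adjusted p = 0.00414 in limma). Both the activator and this inhibitor were therefore higher in ob/ob, with no overlap between groups.

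Vldlr, which holds triglyceride-rich particles near the lipase, read 2.26 to 2.82 in ob/+ and 6.68 to 7.59 in ob/ob at its brighter reporter. That was a 2.97-fold rise (log2 1.57 ± 0.15 SE, adjusted p = 0.00521 in limma). Its dimmer reporter rose 2.35-fold (log2 1.23 ± 0.12 SE, adjusted p = 0.00527 in limma). Sel1l, a protein of the endoplasmic reticulum needed for lipase to leave it, rose 2.00-fold (adjusted p = 0.0142 in limma). The 2 genes called lower, named after their values were seen, were the lipase folding factor Lmf1 (log2 fold change -0.35 ± 0.07 SE, adjusted p = 0.0270 in limma, with 0.00 at a dimmer reporter of mean intensity 0.09) and the sorting receptor Sort1 (-0.61 ± 0.12 SE, adjusted p = 0.0262 in limma).

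Of 20 measured genes of fatty acid transport and binding, 3 were called higher and 2 lower, or 25% called against 24.6% of all genes, with a median of 0.25. Fabp5, the epidermal relative of Fabp4 that fat cells and macrophages also make, read 0.43 to 0.56 in ob/+ and 1.83 to 1.99 in ob/ob. It rose by 2.00 ± 0.10 (SE) on the log2 scale (adjusted p = 0.00174 in limma), opposite to the fall of Fabp4 by 0.84. Fabp7, the brain form, rose by 1.78 ± 0.12 (SE, adjusted p = 0.00293 in limma) from intensities of 0.09 to 0.12. Scarb2, a lysosomal membrane protein of the CD36 family, rose by 0.50 ± 0.09 (SE, adjusted p = 0.0195 in limma) at a reporter of intensity 14.2 to 22.1, while its second reporter, at a mean intensity of 0.04 where rounding can move the value by 0.74, gave 0.00 (adjusted p = 1). Slc27a2, coding for the very-long-chain transport protein FATP2, fell by 2.69 ± 0.14 (SE, adjusted p = 0.00185 in limma) to intensities of 0.04 to 0.05, and Mfsd2a, a lysophospholipid transporter, fell by 1.52 ± 0.36 (SE, adjusted p = 0.0438 in limma) to 0.03 to 0.05. At such levels the deposited step leaves the size of both falls uncertain.

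Of 24 measured genes of the other acyl-CoA synthetases, thioesterases and acyl-CoA binding proteins, 5 were called higher and 5 lower, or 41.7% called against 24.6% of all genes, with a median of 0.07. The share was 36.8% over all genes with a mean intensity of 0.5 or more, which not all of this list reach. Acss2, which makes acetyl-CoA from acetate in cytosol and nucleus, rose by 1.23 ± 0.19 (SE, adjusted p = 0.0154 in limma). The medium-chain synthetases Acsm3 and Acsm5 fell by 3.43 ± 0.12 (SE, adjusted p = 0.000839 in limma) and by 0.47 ± 0.08 (SE, adjusted p = 0.0175), the first to an intensity of 0.04 on all 3 ob/ob arrays. Acsbg1, a synthetase of the bubblegum family, fell by 1.51 ± 0.17 (SE, adjusted p = 0.00676 in limma). The mitochondrial thioesterase Acot2, which reverses the activation step, fell by 0.61 ± 0.09 (SE, adjusted p = 0.0148 in limma); its sequence is close to that of Acot1, so their signals may mix.

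**Figure D4:**
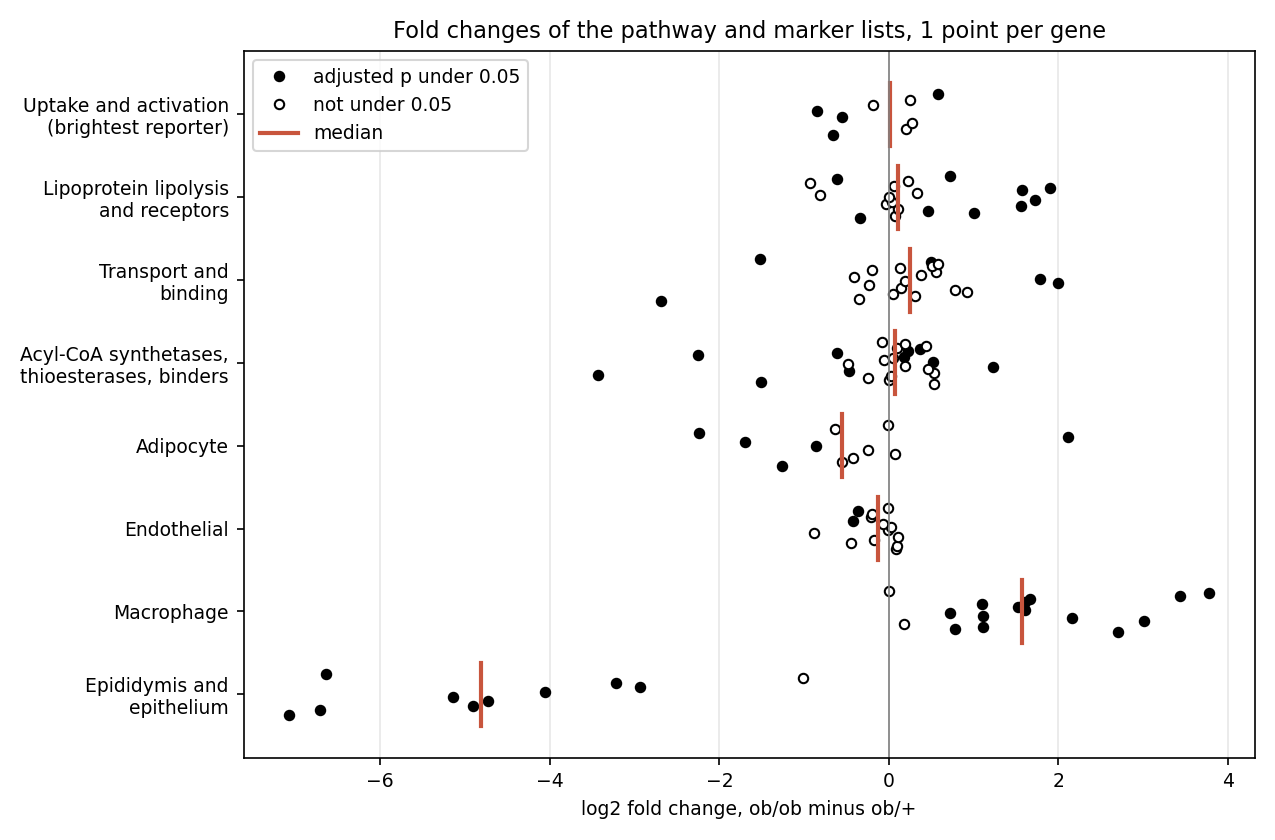
Log2 fold change of ob/ob over ob/+ (horizontal axis) for each gene of the uptake and activation genes, 3 lists of related pathway genes and 4 lists of cell type markers, filled where the adjusted p in limma is under 0.05, with a red bar at the list median. The uptake and activation genes lie between -0.84 and 0.58 around a median of 0.01, the macrophage markers centre at 1.56 and the markers of epididymis and other epithelium at -4.81.

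Markers of other cell types differed between the groups, and these values stand beside every result above. Of 16 macrophage markers 14 were called higher in limma and 0 lower, also at an unadjusted p under 0.05, and their summed intensity was 47.2 to 54.6 in ob/+ and 110 to 208 in ob/ob. C1qa, Csf1r, Gpnmb and Trem2, the brightest of them, rose by 0.72, 1.11, 3.77 and 3.44 on the log2 scale. Of 10 markers of epididymis and other epithelium 9 were called lower, and their sum was 27.8 to 60.4 in ob/+ and 1.36 to 1.81 in ob/ob. Crisp1, a secreted protein of the epididymis, read 4.93, 22.5 and 11.5 on the ob/+ arrays and 0.07 to 0.08 on the ob/ob arrays. Of 5 mesothelial markers 2 were called lower (sum 11.6 to 14.1 in ob/+ and 4.04 to 8.42 in ob/ob), and of 8 muscle markers 2 were called higher (sum 1.43 to 2.45 and 4.78 to 5.13). Most of the rise in the muscle sum was that of Pvalb, the calcium-binding parvalbumin, from 0.05 on every ob/+ array to 1.97 to 2.45 in ob/ob. The other called marker, named after its values were seen, was the contractile gene Myh4 (log2 fold change 0.63, adjusted p = 0.0169 in limma). Its mean intensity was only 0.0742. The remaining 6 did not pass: Acta1 at 0.57, Tnni2 at 0.34, Tnnt3 at 0.195, Ckm at 0.015, Myh1 at -0.04 and Mylpf at -0.11. The part of these cell types in the changes of the fatty acid genes was not tested.

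The genes whose 6 log2 ratios lay nearest to those of the brightest Fabp4 reporter, among 6016 genes with a mean intensity of 1 or more, were Pon3, Ly6a and Dido1. Their root mean square differences from Fabp4 were 0.137, 0.139 and 0.140 on the log2 scale, over 6 arrays. Their log2 fold changes were -0.78, -0.64 and -0.66, against -0.84 for Fabp4.

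The calls changed with how the arrays were scaled. After quantile normalization of the log2 ratios, or after scaling them to equal spread, 0 of the 8 genes passed in limma, and 2 and 1 of them had an unadjusted p under 0.05. Both settings give the ob/ob and ob/+ arrays the same spread. The pool was ob/+ RNA, so differences between the genotypes also widen the ob/ob ratios, and both settings shrink them too. The lost calls therefore cannot show whether a call was wrong. Those settings gave log2 fold changes of -0.68 and -0.59 for Fabp4, -0.47 and -0.43 for Gpihbp1, -0.37 and -0.29 for Slc27a1 and 0.36 and 0.25 for Acsl5. On the sample channel alone 2 passed, Acsl4 at 0.67 and Acsl5 at 0.78. Each of the 4 called genes kept its direction under every alternative except that Acsl5 was 0.00 at its dimmest reporter.

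**Figure D5:**
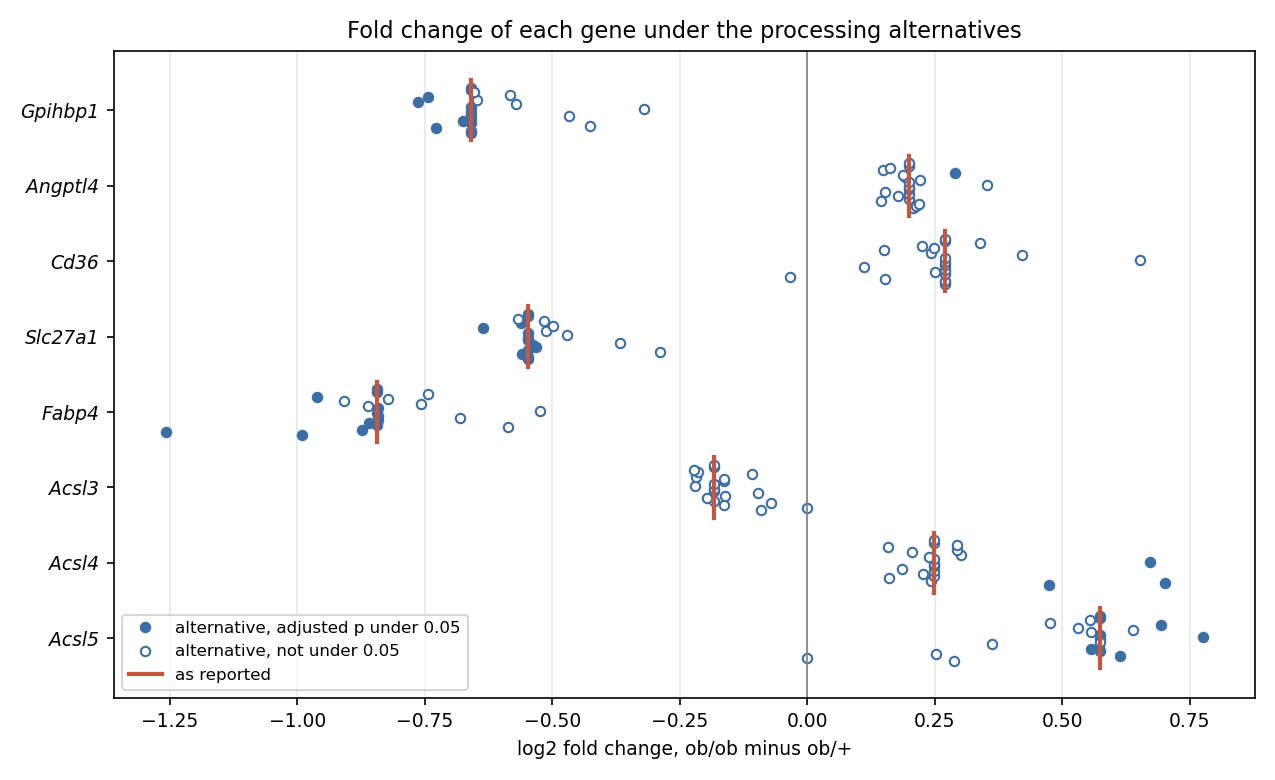
Log2 fold change of ob/ob over ob/+ (horizontal axis) of each gene under each processing alternative (blue circles, filled where the adjusted p in limma is under 0.05) and as reported (red bar). The circles of Gpihbp1, Slc27a1 and Fabp4 stay to the left of 0 and those of Angptl4 and Acsl4 to the right, and those of Cd36 run from -0.03 to 0.65 with none filled.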

How the data were processed

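Per the labels' protocols, RNA was extracted with Trizol and amplified in 2 rounds before labelling. The submitters' processing notes name Agilent Feature Extraction 8.5.1.1. For each reporter and array the authors deposited a linear intensity of the sample channel and a value for the pool channel, normalized in a way not given in the sources used here, with a deposited p-value of sample against pool. A series matrix of deposited log10 ratios matched the ratio of these 2 channels at 100% of reporters, to a tolerance of 0.02 (log2). The deposited intensity came in steps of 0.01 for 97.45% of values, and 281 reporters had a missing value.

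Sample labels were followed where the design text, which describes db/db islets, differs. Table columns carry sample numbers that do not match the replicate numbers of the labels, so they were assigned to groups only, and fits by replicate used the series matrix. Symbols were updated through a RefSeq gene table (GRCm38.p6) for 3147 reporters, and 9345 reporters have none.

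Log2 sample over pool was computed from the deposited intensities and modelled in R 4.3.3 by limma 3.58.1 (lmFit and then eBayes), ob/ob minus ob/+, two-sided, with Benjamini-Hochberg adjustment over 39407 reporters and a threshold of 0.05. A gene is represented by its brightest reporter. The prior had 0.86 degrees of freedom, so little spread was shared, and 1606 reporters had no residual spread. Data were also simulated with this comparison's 39407 reporters and independent noise. The fit called 57 of 66 reporters at a 4-fold change, 45 of 67 at 2-fold and 16 of 67 at 1.5-fold, and 4 unchanged ones. Far fewer reporters were changed there than the 20.9% called in the data, so these rates need not carry over to the real fit.

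The genes and lists were chosen with earlier results of these data known. Named are all members, up to 5 called genes with the lowest p of each pathway list, up to 4 brightest genes of each marker list and the 3 genes most like the called member with the largest change; a gene that the rule names is not reported here. Same-numbered samples of the groups did not deviate together (r of 0.062, -0.062 and 0.003). The numbers thus gave no sign of a pairing, though with 3 samples per group these values cannot exclude one. The alternatives covered normalization, use of only the sample channel, the series matrix, filters on dim reporters, a pseudocount of 0.01, other priors, array weights, a replicate block, each array left out, other reporter rules and thresholds. Upstream windows, from the RefSeq table, were held for 6 of the 10 genes and motifs were searched on both strands. Figures were made with matplotlib 3.10.9 under Python 3.11.15.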

Additional observations from a re-analysis of the deposited data

How the results depend on the processing

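Of the 8 measured genes 4 were called, 0 after quantile normalization and 0 at equal spread, 2 on the sample channel alone, 0 at an adjusted p under 0.01, 0 at a change of at least 2-fold, and 7 with every reporter counted on its own, an alternative chosen after seeing the data. Leaving out 1 array at a time gave 0 to 4: 0 without ob/+ replicate 1, ob/+ replicate 3 or ob/ob replicate 3, 1 without ob/ob replicate 2, 2 without ob/+ replicate 2 and 4 without ob/ob replicate 1. At an unadjusted p under 0.05, 4 or 5 of the 8 genes passed whichever array was left out. The cause was not tested. The difference Acsl5 minus Acsl4 turned from 0.33 to -0.19 with reporters averaged and to -0.70 with the dimmest reporters. Of all genes 6322 were called, 555 after quantile normalization, 132 at equal spread, 2125 at an adjusted p under 0.01, 1912 at 2-fold or more and 3128 to 5358 with 1 array left out. Over the pathway and marker lists 58 were called, 10 after quantile normalization, 2 at equal spread and 29 to 54 with 1 array left out. On the sample channel alone the median of all genes was 0.13 and 67.1% of the calls were higher, against 0.00 and 50.6% as reported, and at equal spread 59.8% were higher. With the replicate block, whose numbers gave no sign of pairing the samples, 3 of the 8 genes, 2607 of all genes and 33 of the list genes were called. Acsl5 was the gene not called under the block (adjusted p = 0.0650 in limma). The second reporters of Acsl3, Acsl5 and Scarb2 lay near the deposited step of 0.01. Rounding can move their log2 fold changes by 1.14, 0.74 and 0.74. The changes at the brighter reporters were smaller, at -0.18, 0.58 and 0.50, so the 0.00 at the dim reporters neither bears them out nor contradicts them.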
